A study of Danio rerio with 20 samples.

Results

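The members described here were 3 hox genes of the zebrafish, taken by their spot identifiers on a microarray: hoxb1b (45k09), hoxb5a (45g09) and hoxa13b (45a10). They were 3 of 16578 probe spots per array, and 3 of the 7 hox genes that could be tied to a spot by name. All 3 passed the filter on missing ratios and were among the 3652 probes tested. Whole embryos lay in water with 0.025 or 0.1 ml/L of the carrier solvents dimethylformamide (DMF) or dimethyl sulfoxide (DMSO), or without either as the control, which gave 5 conditions. In what follows, low and high stand for 0.025 and 0.1 ml/L, and a pool carries its replicate number. Exposure began in the early cleavages of the egg, and the embryos were taken after 48 h at 26 °C. The surviving embryos of 1 plate, out of 20 exposed, were pooled to 1 RNA sample, and 4 such pools per condition were hybridised of the 5 plates run. No strain was given in the labels, and dead embryos were not in the pools.

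Hox genes code for homeodomain transcription factors that give the cells along the body axis their regional identity. In most animals studied they lie in clusters, and their order in the cluster follows the order of their expression domains from head to tail. Retinoic acid, made in the trunk mesoderm and broken down in the head, sets the front borders of many of them, and vertebrate embryos exposed to excess retinoic acid shift these borders. In zebrafish, hoxb1b acts early in the hindbrain and helps to set up its segments. The fifth paralogue group, which holds hoxb5a, is expressed from the border of hindbrain and spinal cord backwards through the trunk. The thirteenth group, which holds hoxa13b, marks the tail end of the axis and the outer part of the fins. In the RefSeq annotation of assembly GRCz12tu, the nearest protein-coding neighbours of hoxb5a were hoxb6a and hoxb4a, and hoxa13b lay beside hoxa11b at the end of its cluster. Those of hoxb1b were hoxb8b and hoxb6b, which is out of the order of the paralogue numbers.

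Each array held 2 pools, 1 labelled with Cy3 and 1 with Cy5, and every pair of pools was hybridised a second time with the dyes exchanged. The spot value was the amplitude, a fluorescence intensity in arbitrary units that the scanner software estimated from the image, with a confidence between 0 and 1 and a letter grade from A (best) to E (lowest). The 20 arrays made 10 pairs, so that every condition met every other condition in 1 pair. Array 1 carried the scan name of array 17, with a correlation of 0.88 between their raw log ratios, while no other of 189 array pairs passed 0.60. Array 1 and its partner, which held low-DMF pool 2 and high-DMSO pool 1, were therefore left out of the tests given here, and were fitted only as an alternative. This left 18 arrays in 9 pairs, with 3 pools each of high DMSO and low DMF and 4 of each other condition. The labels speak of a block design for the plates without giving the block of a pool, so the p-values measure the spread between these pools. Of the marker genes listed to check a whole embryo (muscle, nerve, blood, lens, skin, gut, notochord), 0 could be tied to a spot, so the tissue was not checked. A pool of whole embryos cannot tell fewer cells of a region from less RNA per cell.

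The spots of the 3 genes stood above the empty spots by different margins. On the 12 arrays of the second scan batch, 1 pool of each pair gave readings close to those of spots that hold no probe: its median probe was 1.12 to 1.88 times the median empty spot. In that batch hoxb5a lay at 0.706 to 42.7 times the median empty spot, and 13 of its 24 channel readings exceeded the 95th percentile of the empty spots. For hoxb1b the range was 1.32 to 44.5 times, with 15 of 24 readings above that percentile. For hoxa13b it was 3.11 to 200 times, and all 24 readings exceeded it. In the 6 arrays of the last batch hoxb1b exceeded the percentile in 12 of 12 readings, hoxb5a in 10 of 12 and hoxa13b in 12 of 12.

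**Figure D1:**
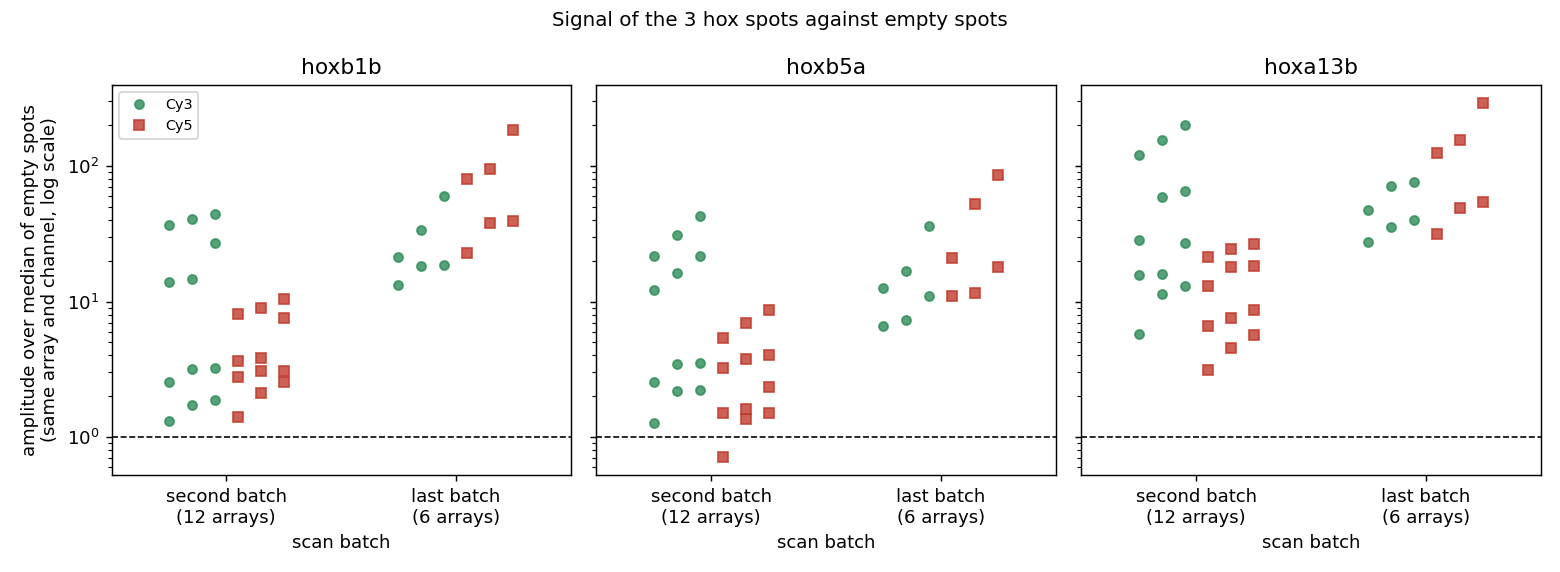
Amplitude of the hoxb1b, hoxb5a and hoxa13b spots divided by the median empty spot of the same array and channel (log axis), for the 12 arrays of the second and the 6 arrays of the last scan batch. Each point is 1 channel of 1 array, circles stand for Cy3 and squares for Cy5, and the dashed line marks a ratio of 1. The hoxb5a readings of the second batch reach down to 0.706, while those of hoxa13b start at 3.11.

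The grades of hoxb1b and hoxb5a were lower in the second batch than in the last. Over the 12 arrays of the second batch, hoxb1b was graded B on 6, C on 2, D on 3 and E on 1, with confidence between 0.05 and 0.67. Over the same arrays hoxb5a was graded B on 1, C on 7, D on 3 and E on 1, with confidence between 0.04 and 0.64. In the last batch hoxb1b was graded A on 5 and B on 1 of 6 arrays, and hoxb5a was graded A on all 6. The E grade of both genes fell on the same array, the one with low-DMF pool 4 in Cy5 and low-DMSO pool 3 in Cy3. There hoxb1b read 150 in Cy5 and 605 in Cy3, and hoxb5a read 114 and 780. That pair gave no ratio for hoxb1b and hoxb5a, which entered the tests with 8 pairs. The tail gene hoxa13b went the other way: it was graded A on 10 and B on 2 arrays of the second batch, but A on 1, B on 4 and C on 1 of the last. It was never graded E on the 18 arrays and entered with 9 pairs.

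The hindbrain gene hoxb1b differed little between pools in the last scan batch and more in the second. The values that follow are log2 ratios of the first-named pool over the other, each the mean of both dye orientations after loess normalization within the array. In the second batch the ratio was 0.43 for high-DMF pool 4 over low-DMSO pool 4 and 0.26 for high-DMSO pool 2 over low-DMSO pool 2. It was 0.44 for low-DMSO pool 1 over control pool 1, -0.73 for low-DMF pool 1 over control pool 2 and 0.31 for high-DMSO pool 3 over control pool 4. In the last batch the ratio was 0.02 for high-DMF pool 1 over control pool 3, 0.13 for high-DMF pool 2 over low-DMF pool 3 and 0.14 for high-DMF pool 3 over high-DMSO pool 4. The pair of low-DMF pool 1 with control pool 2 was the widest, and all 3 high-DMF pools of the last batch lay within 0.14 of their partners.

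The single arrays of hoxb1b differed by dye. With both orientations averaged its Cy5 reading was the higher in 8 of 8 pairs, by 0.41 ± 0.22 on the log2 scale (mean ± SD over pairs), a mean at or above that of 93.6% of tested probes. The orientations gave the same sign in 1 of 8 pairs. For low-DMSO pool 1 over control pool 1, for example, the ratio was 1.16 with the exposed pool in Cy5 and -0.27 with it in Cy3. The pair with low-DMF pool 1 gave -0.51 and -0.95, both below 0. Over all tested probes, 49.7% of the pair ratios had the same sign in both orientations. A single array of hoxb1b therefore gave no direction that its partner array shared, outside that 1 pair.

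The trunk gene hoxb5a had its widest ratios in pairs with low-DMSO or low-DMF pools of the second batch. The log2 ratio was 0.59 for high-DMF pool 4 over low-DMSO pool 4 and 0.88 for high-DMSO pool 2 over low-DMSO pool 2. It was -0.05 for low-DMSO pool 1 over control pool 1, -0.72 for low-DMF pool 1 over control pool 2 and 0.07 for high-DMSO pool 3 over control pool 4. The 3 pairs that passed 0.5 in size had the 0.025 ml/L pool as the lower one. In the last batch the ratio was 0.02 for high-DMF pool 1 over control pool 3, -0.22 for high-DMF pool 2 over low-DMF pool 3 and 0.04 for high-DMF pool 3 over high-DMSO pool 4. The orientations gave the same sign in 5 of 8 pairs, and the dye difference was small, at -0.07 ± 0.15.

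In the second batch the pool whose channel lay nearer the empty spots was the same in both orientations, so the dye exchange does not cancel what background remained there. For hoxb5a that pool was the lower one in 3 of 5 pairs, by 0.59, 0.88 and 0.72 on the log2 scale in the 3 wide pairs just described. For hoxb1b it was the lower one in 4 of 5 pairs, and for hoxa13b in 2 of 6. The median over all tested probes lay between -0.11 and 0 in these pairs, on the same scale (the nearer pool minus its partner). Loess centres the ratios of each array near 0, so this median was set by the normalization and is no baseline for single genes. How many of all tested probes had the nearer pool lower in as many pairs was not counted. The part of this background in the ratios of hoxb1b and hoxb5a was not tested.

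The tail gene hoxa13b had the widest spread between pools, on spots well above the empty ones. Its log2 ratio was -0.99 for high-DMF pool 4 over low-DMSO pool 4, which is 0.503 times its partner. It was -0.23 for high-DMSO pool 2 over low-DMSO pool 2, 0.32 for low-DMSO pool 1 over control pool 1 and 0.74 for low-DMF pool 1 over control pool 2. It was -0.13 for low-DMF pool 4 over low-DMSO pool 3 and -0.51 for high-DMSO pool 3 over control pool 4. The 0.1 ml/L pool was the lower one in each of the 3 pairs of this batch that held one. In the last batch the ratio was -0.45 for high-DMF pool 1 over control pool 3, -0.12 for high-DMF pool 2 over low-DMF pool 3 and 0.62 for high-DMF pool 3 over high-DMSO pool 4. The orientations gave the same sign in 6 of 9 pairs.

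**Figure D2:**
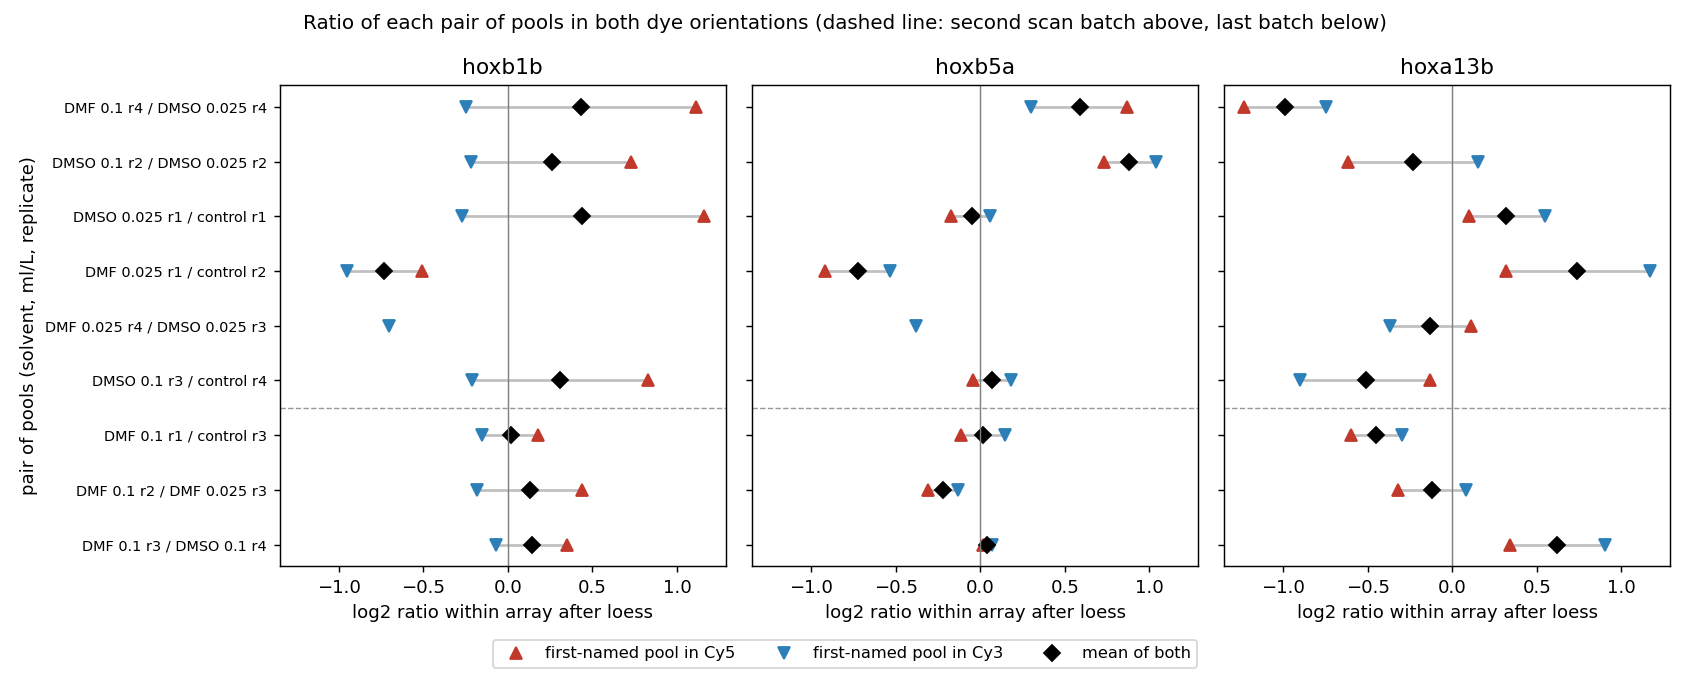
Log2 ratio of each of the 9 pairs of pools for hoxb1b, hoxb5a and hoxa13b, with the first-named pool in Cy5 (upward triangle), in Cy3 (downward triangle) and as the mean of both (diamond). Pairs above the dashed line belong to the second scan batch, those under it to the last. For hoxb1b the orientations lie on opposite sides of 0 in 7 of 8 pairs, and for hoxa13b the means reach from -0.99 to 0.74.

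Measured over all its pairs, the root mean square of the log2 ratios was 0.37 for hoxb1b, 0.46 for hoxb5a and 0.54 for hoxa13b, against a median of 0.34 over the tested probes. That of hoxa13b was at or above 86.6% of the probes and that of hoxb1b at or above 58.6%. The pairs of a gene did not close to 1 set of condition values. After the 5 conditions were fitted, a residual SD of 0.39 remained for hoxb1b, 0.43 for hoxb5a and 0.46 for hoxa13b, against a median of 0.32. For hoxa13b, high-DMF pool 4 over low-DMSO pool 4 had a residual of -0.47 from the fit, and high-DMSO pool 2 over low-DMSO pool 2 one of 0.52. The residual SD of each gene was thus of about the size of its ratios.

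No hox gene passed the test against control in any exposure, whether hindbrain, trunk or tail. The test was limma's moderated test on the pair ratios, with p-values adjusted by Benjamini-Hochberg over the 3652 probes and a threshold of 0.05. The comparisons share pools, so the values of a gene in several comparisons are not independent. Between high DMSO and control, hoxb1b differed by 0.21 ± 0.24 (log2 difference ± standard error, adjusted p = 0.767), hoxb5a by 0.13 ± 0.25 (adjusted p = 0.871) and hoxa13b by -0.39 ± 0.26 (adjusted p = 0.548). In that comparison 10 of all 3652 probes (0.274%) passed. Between low DMSO and control the differences were 0.04 ± 0.24, -0.48 ± 0.25 and 0.36 ± 0.24 in the same order of genes, each at an adjusted p = 0.996. Hindbrain and trunk genes and the tail gene thus had no common sign at this dose.

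Between low DMF and control, hoxb1b differed by -0.36 ± 0.27, hoxb5a by -0.28 ± 0.28 and hoxa13b by 0.31 ± 0.26, with adjusted p-values of 0.877, 0.909 and 0.887. In every comparison with low DMF, hoxb1b and hoxb5a had low-DMF pools 1 and 3 only, since pool 4 gave them no ratio. Pool 1 was the one nearer the empty spots in its pair. The part of this background in the low-DMF comparisons was not tested. Between high DMF and control the differences were the smallest of the 4 exposures for hoxb5a and hoxa13b, at -0.05 ± 0.23 and -0.17 ± 0.24. There hoxb1b differed by 0.15 ± 0.22, and all 3 adjusted p-values were 0.999. The median absolute log2 difference over all tested probes was also smallest there, at 0.11. It was 0.15 for low DMSO, 0.21 for high DMSO and 0.17 for low DMF against control. The intervals show what these pools could not exclude. For high DMF against control the 95% interval of the fold ran from 0.795 to 1.55 for hoxb1b, from 0.682 to 1.37 for hoxb5a and from 0.62 to 1.28 for hoxa13b. The comparisons of low DMSO, low DMF and high DMF with control passed 0 of 3652 probes each (0%), and an unadjusted p under 0.05 was reached by 162, 231 and 37 probes.

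The step from 0.025 to 0.1 ml/L within DMSO gave the lowest p-values of hoxa13b and hoxb5a, with opposite signs. The tail gene hoxa13b was lower at 0.1 ml/L, with a log2 difference of -0.75 ± 0.26 or 0.595 times the level at 0.025 ml/L with a 95% interval from 0.402 to 0.88 (unadjusted p = 0.0131, adjusted p = 0.19 by limma). The trunk gene hoxb5a was higher by 0.61 ± 0.26, or 1.53 times with an interval from 1.03 to 2.25 (unadjusted p = 0.0353, adjusted p = 0.258). The hindbrain gene hoxb1b differed by 0.17 ± 0.25 (adjusted p = 0.79). Here 16 of 3652 probes (0.438%) passed after adjustment, none of them a hox gene. At an unadjusted p under 0.05 stood 2 of the 3 genes, but also 625 of all probes (17.1%). Low-DMSO pools 2, 3 and 4 were the ones nearer the empty spots in their pairs, as was high-DMSO pool 3 in its pair. In low DMSO 2 of 8 hoxb5a readings exceeded the 95th percentile of the empty spots, and 8 of 8 of hoxa13b. The part of this background in the DMSO step was not tested.

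The pair that held both DMSO doses on the same arrays showed less of the hoxa13b difference than the fit. High-DMSO pool 2 over low-DMSO pool 2 was -0.23 for hoxa13b, and -0.62 and 0.15 in the single orientations. For hoxb5a the same pair gave 0.88, above the fitted 0.61. Without each of the 9 pairs in turn the fitted hoxa13b difference ran from -1.20 to -0.55 and that of hoxb5a from 0.33 to 0.81, all short of the threshold. Fitted by separate channels, which requires a reading on all 18 arrays and so could take hoxa13b alone of the 3, the hoxa13b difference was -0.67 and passed at an adjusted p of 0.0173, where 371 of 2685 probes passed. It was the single call of a hox gene over all the settings tried. The separate-channel fit counted the 2 arrays of a pair as separate replicates of the same pools. Its p-values therefore do not measure the spread between pools.

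Within DMF, each of the 3 genes had the same sign as within DMSO, and no hox gene passed. Both steps come from the same fit, so their signs are not independent. From 0.025 to 0.1 ml/L hoxa13b differed by -0.48 ± 0.26 (unadjusted p = 0.0922), hoxb1b by 0.51 ± 0.27 (unadjusted p = 0.0862) and hoxb5a by 0.23 ± 0.28 (unadjusted p = 0.442), each at an adjusted p = 0.998 by limma. Of all probes 0 passed (0%), with 101 at an unadjusted p under 0.05. The pair with both DMF doses on the same arrays gave -0.12 for hoxa13b, 0.13 for hoxb1b and -0.22 for hoxb5a, smaller than the fit for the first 2 and opposite to it for hoxb5a. With each pair left out in turn the hoxb1b step ran from 0.13, without low-DMF pool 1 and control pool 2, to 1.07, without high-DMF pool 2 and low-DMF pool 3. Without these same pairs hoxb5a gave -0.22 and 0.89, and hoxa13b -0.26 and -0.79, so the size of the step rested on single pairs in all 3 genes. The steps of DMF and DMSO did not differ past the threshold. The DMF step minus the DMSO step was 0.34 ± 0.37 for hoxb1b, -0.38 ± 0.38 for hoxb5a and 0.27 ± 0.34 for hoxa13b (adjusted p = 0.736, 0.714 and 0.789), with 12 of all probes past the threshold (0.329%).

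No hox gene passed between the solvents at the same dose. At 0.1 ml/L, DMF minus DMSO was -0.05 ± 0.24 for hoxb1b, -0.18 ± 0.25 for hoxb5a and 0.23 ± 0.26 for hoxa13b, with adjusted p-values of 0.957, 0.812 and 0.755. This was the comparison with the most calls, 24 of 3652 probes (0.657%). The 95% intervals still held log2 differences from -0.58 to 0.47 for hoxb1b, from -0.72 to 0.37 for hoxb5a and from -0.34 to 0.79 for hoxa13b. At 0.025 ml/L the difference was -0.40 ± 0.33 for hoxb1b, 0.21 ± 0.34 for hoxb5a and -0.05 ± 0.26 for hoxa13b, at adjusted p-values of 0.764, 0.9 and 0.971, with 0 probes passing (0%) and 326 at an unadjusted p under 0.05. The pair that held these conditions gave -0.13 for hoxa13b and no ratio for the other genes.

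The remaining pairs of conditions differ in solvent and in dose together and only complete the loop. High DMF minus low DMSO was -0.52 ± 0.24 for hoxa13b, with a 95% interval from -1.05 to 0 (unadjusted p = 0.0496, adjusted p = 0.861), and 207 of all probes (5.67%) had an unadjusted p under 0.05. Low DMF minus high DMSO was 0.70 ± 0.31 for hoxa13b (unadjusted p = 0.0429, adjusted p = 0.455), with 379 of all probes (10.4%) at that level and no probe past the adjusted threshold in either comparison (0%). Both put the 0.1 ml/L pools lower for hoxa13b, but they are computed from the same fitted values as the dose steps and add nothing separate to them. In the first of these comparisons hoxb1b differed by 0.11 ± 0.24 and hoxb5a by 0.43 ± 0.25 (adjusted p = 0.983 and 0.903), and in the second by -0.56 ± 0.33 and -0.40 ± 0.34 (adjusted p = 0.586 and 0.711). Over the 11 comparisons of 3 genes, 0 of 33 tests passed after adjustment and 4 of 33 had an unadjusted p under 0.05, 3 of them for hoxa13b. These 4 fell in the DMSO step, where 17.1% of all probes had such a p, and in the comparisons just given, with 5.67% and 10.4%. The 3 of hoxa13b come from comparisons that share pools and are not independent. A moderated F test over the 5 conditions gave an adjusted p = 0.806 for hoxb1b, 0.647 for hoxb5a and 0.56 for hoxa13b, and 4 of 3652 probes (0.11%) passed it.

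**Figure D3:**
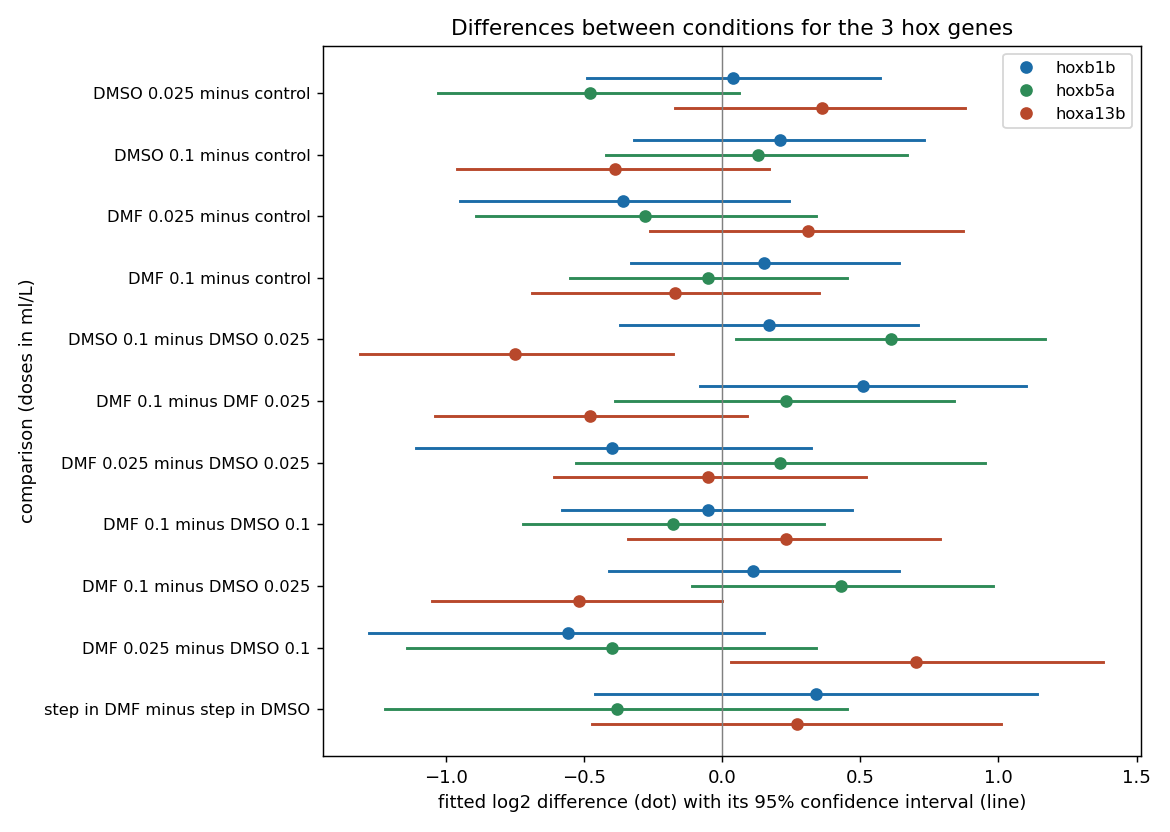
Fitted log2 difference (dot) and 95% confidence interval (line) of hoxb1b, hoxb5a and hoxa13b in the 11 comparisons, from 8 pairs of pools for hoxb1b and hoxb5a and 9 for hoxa13b. The hoxa13b interval for high DMSO minus low DMSO runs from -1.31 to -0.18, and that of hoxb5a from 0.05 to 1.17; none passed after adjustment over all probes.

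Scan batches hold different conditions, and the values changed between them. The last batch held high DMF with control, low DMF and high DMSO, in 3 pairs with no spare degrees of freedom, so it gives values and no test. There high DMSO minus control came to -0.13 for hoxb1b, -0.03 for hoxb5a and -1.07 for hoxa13b, each the difference of 2 pair ratios that share no pool. Low DMF minus control was -0.12, 0.24 and -0.33 in the same order. The hindbrain and trunk genes thus stayed within 0.27 of 0 in every comparison this batch could give, while hoxa13b reached -1.07. In the second batch alone, high DMSO minus low DMSO was -0.53 for hoxa13b, 0.63 for hoxb5a and 0.13 for hoxb1b, each at an adjusted p of 0.717 or more by limma. The DMF step came to 1.47 for hoxb1b, 1.00 for hoxb5a and -1.14 for hoxa13b there, against 0.13, -0.22 and -0.12 in the last batch. In the second batch it rested on high-DMF pool 4 alone and, for hoxb1b and hoxb5a, on low-DMF pool 1 alone. That low-DMF pool, and low-DMSO pool 4 in the pair of the high-DMF pool, were the ones nearer the empty spots. The part of this background in the DMF step was not tested.

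The level of each gene in every pool was computed from the same spots, as the log2 amplitude after loess and quantile scaling of the average intensity between arrays, over all 20 arrays. Levels describe 1 probe across pools and are not compared between genes. For hoxb1b the controls, replicates 1 to 4, stood at 9.08, 9.83, 10.94 and 9.96, and the high-DMF pools at 10.95, 10.74, 10.72 and 9.80. The high-DMSO pools stood at 11.20, 9.62, 10.27 and 10.57. Replicates 1, 2 and 4 of low DMSO stood at 9.52, 9.37 and 9.37, and replicates 1, 2 and 3 of low DMF at 9.10, 11.41 and 10.60. Replicate 3 of low DMSO read 10.2 in Cy5 only, and replicate 4 of low DMF 9.5 in Cy3 only, so neither had a level. The conditions overlapped, but the scan batches did not: the 10 pools of the second batch lay between 9.08 and 10.27 and the 6 of the last between 10.57 and 10.95. How many of all tested probes have scan batches that lie apart in this way was not counted. The order of mean levels, 10.55 ± 0.51 (SD, n = 4) in high DMF down to 9.42 ± 0.09 (n = 3) in low DMSO, sets a condition with 3 of 4 pools in the last batch above one with none there, and batch and condition cannot be told apart in it.

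For hoxb5a the levels were 9.56 ± 0.36 (SD, n = 4) in controls, 9.60 ± 0.28 (n = 4) in high DMSO, 9.56 ± 0.65 (n = 3) in low DMF and 9.56 ± 0.37 (n = 4) in high DMF. Low DMSO stood at 8.78 ± 0.30 (n = 3), with pools at 9.13, 8.61 and 8.60. Its highest pool was under the lowest of the controls (9.18), of high DMSO (9.38) and of high DMF (9.19), and overlapped with low DMF (8.84). All 3 came from the second batch, and replicates 2 and 4 were pools whose channel lay near the empty spots. The part of the background in this low level was not tested. Replicate 3 had no level, since its Cy3 spot was graded E. Its Cy5 spot, graded B, read 10.03, against 9.17, 9.81, 9.9 and 9.02 in Cy5 for controls 1 to 4. That Cy5 spot did not exceed the 95th percentile of the empty spots. With spots of every grade kept, low DMSO stood at 9.18 ± 0.36 (n = 4), and its pools, from 8.87 to 9.63, then overlapped with the controls, from 9.35 to 9.72. How many of all tested probes have low-DMSO pools that all lie apart from the controls was not counted.

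For hoxa13b the controls stood at 11.59, 11.51, 11.98 and 11.61, a mean of 11.67 ± 0.21 (SD, n = 4). Low DMF followed at 11.55 ± 0.69 (n = 3), with pools at 12.25, 11.53 and 10.87, the widest spread of any condition for this gene. Low DMSO stood at 11.47 ± 0.38 (n = 4), with pools at 11.92, 11.46, 11 and 11.51, and high DMF at 11.29 ± 0.53 (n = 4), with pools at 11.53, 11.41, 11.71 and 10.52. High DMSO was lowest at 11.13 ± 0.08 (n = 3), its pools at 11.22, 11.09 and 11.09 all under the lowest control. With spots of every grade kept, high DMSO stood at 11.31 ± 0.38 (n = 4), and its pools reached 11.73, above the lowest control at 11.50. How many of all tested probes have high-DMSO pools that all lie apart from the controls was not counted. No neighbours in this order were farther apart than the larger of their SDs, and every neighbouring pair of conditions overlapped. Scan batches overlapped too, from 10.52 to 12.25 in the second and from 11.09 to 11.98 in the last.

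**Figure D4:**
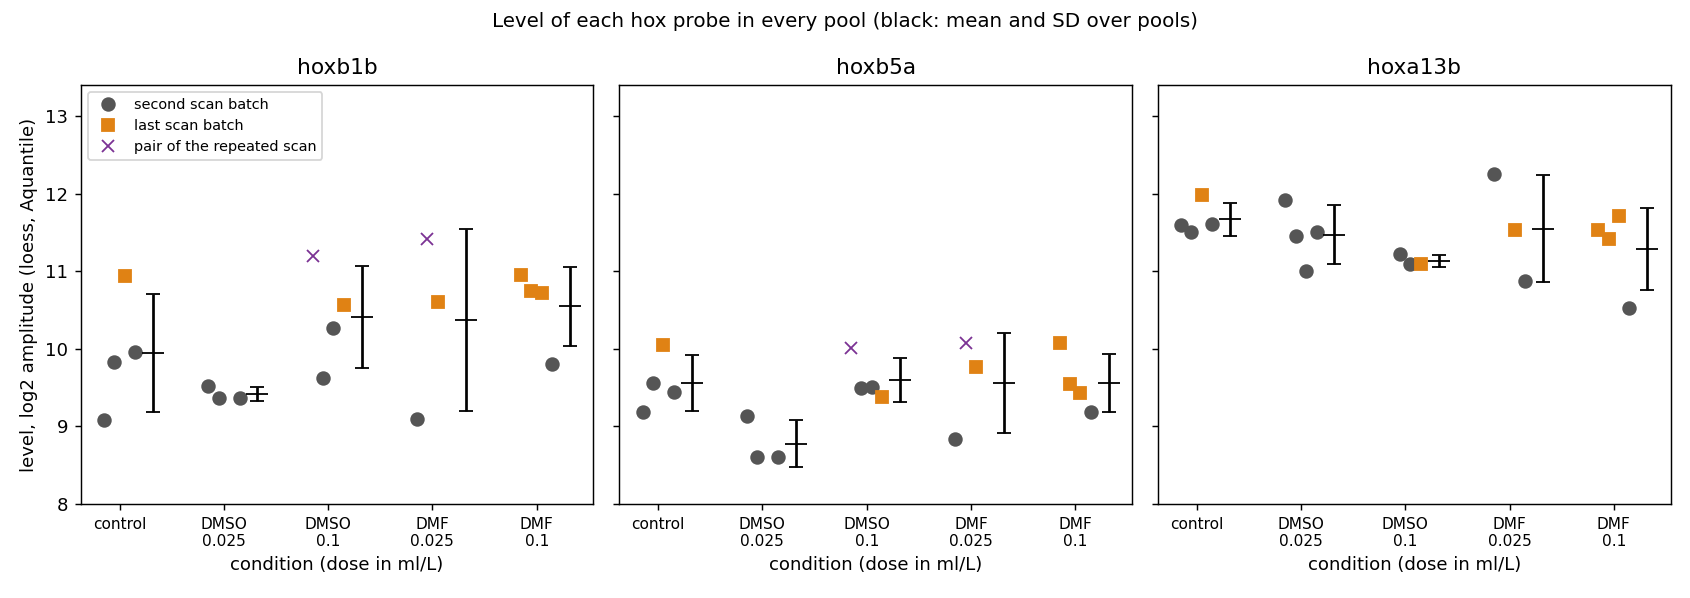
Level of hoxb1b, hoxb5a and hoxa13b in each pool (log2 amplitude after loess and quantile scaling between arrays), by condition, with circles for the second scan batch, squares for the last and crosses for the pair with the repeated scan. Black bars give the mean and SD over pools. The hoxb1b squares, from 10.57 to 10.95, all lie above the circles, which end at 10.27. The share of all tested probes with such a separation was not counted.

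The pools of the pair with the repeated scan enter these levels, and some means moved without them. Without that pair hoxb1b stood at 9.90 ± 1.06 (SD, n = 2) in low DMF in place of 10.37 ± 1.17 (n = 3), and at 10.21 ± 0.48 (n = 3) in high DMSO in place of 10.41 ± 0.66 (n = 4). For hoxb5a low DMF then stood at 9.36 ± 0.65 (n = 2) and high DMSO at 9.52 ± 0.07 (n = 3). Array 1 and array 17 gave hoxb1b the same rounded amplitudes, 1010 in Cy3 and 1370 in Cy5, under labels of different pools. For hoxa13b both gave 2600 and 2170. Array 2, the partner of array 1, is given here with spots graded E kept, unlike the ratios above. There the ratio of low-DMF pool 2 over high-DMSO pool 1 was 0.26 for hoxb1b, 0.23 for hoxb5a and -0.52 for hoxa13b. The last was graded E in spite of a confidence of 0.80. These single-orientation values carry the dye and were not used in the tests given here.

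The other hox genes with a named spot had a ratio in too few pairs to be tested. Of 49 hox genes in the list used, 7 had a named spot and 3 were tested, none of which passed. The trunk gene hoxb6a, the neighbour of hoxb5a in the annotation, was graded above E on 12 of 18 arrays and had a ratio in 5 pairs. In the 3 pairs of the last batch, where all its spots were graded above E, it gave 0.11 for high DMF over control, 0.08 over low DMF and 0.07 over high DMSO. The hindbrain gene hoxa2b gave 0.18 and -0.19 in the first 2 of these pairs, and hoxc5a, of the same paralogue group as hoxb5a, gave 0.23 and -0.09. The posterior gene hoxa11b, beside hoxa13b in its cluster, was graded above E on 2 of 18 arrays and had no ratio. In the last batch the ratios these genes had, like those of hoxb1b and hoxb5a, stayed within 0.23 of 0. There hoxa13b gave -0.45 over control, -0.12 over low DMF, and 0.62 over high DMSO. In the pair with high DMSO, hoxb6a alone of these neighbours had a ratio. Outside the hox genes, rarga gave -0.45, 0.09 and 0.37 in the same 3 pairs, and mafba gave -0.02, 0.13 and -0.04. Both genes are taken up in the next paragraph. The spread of all tested probes in this batch was not computed.

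Genes that act before or beside the hox genes gave no call either. Of 20 genes of retinoic acid supply, breakdown and reception, 2 had a named spot. The receptor gene rarga was tested and cyp26a1, whose enzyme breaks down retinoic acid, was graded above E on 1 of 18 arrays. In rarga, high DMSO minus control was -0.33 ± 0.29 (adjusted p = 0.669 by limma), and none of its 11 comparisons passed. Of 15 genes that pattern the hindbrain and tail upstream, mafba, needed for the rear hindbrain segments in zebrafish, was tested. It differed by 0.18 ± 0.25 between high DMSO and control (adjusted p = 0.806) and passed in no comparison. The hindbrain segment gene egr2b had a ratio in 4 pairs and gave 0.06, 0.08 and -0.04 in the last batch. Of 13 hox cofactor genes, 0 had a named spot.

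Among the tested probes with a gene symbol, 14 in all, the pair ratios of hoxb1b were most like those of dbx1b, a homeobox gene of neural progenitors in the spinal cord and hindbrain, and of mafba. Likeness was measured as the cosine of the ratios over the pairs both genes had, which does not depend on the direction in which a pair is written. The cosine was 0.90 with dbx1b and 0.75 with mafba over 8 pairs, and 95% of all probes lay under 0.62. The ratios of hoxb5a were most like those of hoxb1b (0.71) and dbx1b (0.57), with 95% of probes under 0.66. Those of hoxa13b were most like rarga (0.38) and the zinc finger gene zeb1b (0.31) over 9 pairs, where 95% of probes lay under 0.67. Between hoxa13b and the others of the 3 genes the cosine was below 0, at -0.58 with hoxb1b and -0.64 with hoxb5a. Of all probes, 5% lay under -0.64 for hoxa13b, under -0.49 for hoxb1b and under -0.61 for hoxb5a. Among the genes with a symbol, hoxa13b had its lowest cosine with dbx1b, at -0.74 over 8 pairs. These genes share arrays, pools and background, and the cosines are a description.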

How the data were processed

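Spot intensity per channel was deposited as the amplitude estimated by BlueFuse for Microarrays (version 3.3 for 2 arrays, 3.6 for 18), per the file headers, which also give, as a fraction between 0 and 1, a confidence and the probability that the biological signal is on. The deposited value table holds 1 log2 ratio per spot, whose normalization is not given in the sources used here; by rank correlation every column lay closest to the raw ratio (Cy5 over Cy3) of the array it is listed for, and the table served as an alternative. The labels gave condition, dose and replicate.

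The ratios come from limma 3.58.1 under R 4.3.3, with loess inside each array (span 0.3 and 4 iterations), without background subtraction, with 750 control spots and spots graded E at weight 0, and spots graded E were then left out. Spots of 1 repeated probe (172) were averaged. The 2 arrays of a pair were turned 1 way and averaged, and probes with a ratio in at least 8 pairs were tested in 1 model of all 5 conditions (limma's variance moderation, 8.67 prior and up to 5 residual degrees of freedom, standard errors computed from the pairs each probe had). The scan names in the headers gave the scan batch. Symbols came from RefSeq accessions matched without version (47 of 61 spots). Members, lists, comparisons and the named-gene rule (the members, the listed genes with a spot, and the 2 genes of highest cosine) were chosen with earlier results of these data known. The steps from pairs to tests were tested on simulated data. Figures were drawn with matplotlib. Signal over background and the number of arrays limit the precision. Genome positions were used only for the neighbouring genes named above, and sequences were not used here.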

Additional observations from a re-analysis of the deposited data

How the results depend on the processing

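Of 723 fitted values of the 3 genes, under 15 other settings and with each of the 9 pairs left out, 1 passed: hoxa13b in the DMSO step with separate channels, which made the count of hox genes called there 1 in place of 0 among the 2685 probes that fit could take. Over its 14 settings that difference kept its sign, from -0.79 to -0.53, with adjusted p from 0.0173 to 0.805. The values of the last batch alone are among the 723 but had no p-value, so they could not pass. The separate-channel fit counted the 2 arrays of a pair as separate replicates, so its p-values do not measure the spread between pools. It also gave the highest counts of called probes over the settings, save for low DMSO minus control. There the second batch alone called 5 and separate channels 1. Probes called in the DMSO step ran from 0 to 371, for high DMSO minus control from 0 to 125, for high DMF minus high DMSO from 0 to 232, for the difference of steps from 0 to 275 and for F from 0 to 299. For low DMF the counts reached 29 against control, 102 against low DMSO and 129 against high DMSO, each 0 in the fit reported. With 1 pair left out the DMSO step had 1 to 57 calls and high DMF minus high DMSO 0 to 83. Normexp with the empty spots as background gave the same differences of the 3 genes, to 2 decimals, as with background 0, and so tests nothing about that background. The following differences turned their sign, and no cause was tested. With all 20 arrays, hoxb1b was -0.01 for low DMSO minus control and 0.10 for high DMF minus high DMSO. With every grade kept the former was -0.04, and with median centring these were -0.02 and 0.07. For hoxa13b, low DMF minus low DMSO was 0.02 with median centring, 0.08 with print-tip loess and 0.13 in the deposited value table. For hoxb5a it was -0.07 with one-sided pairs kept and -0.02 in single arrays with the pair as a random block.

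In the second batch alone, hoxb1b was 0.30 for high DMF minus high DMSO. There hoxb5a was 0.28 for high DMF minus control, -0.42 for low DMF minus low DMSO and 0.37 for the difference of steps. For hoxa13b the values were 0.15 for low DMF minus low DMSO, -0.46 for high DMF minus high DMSO and -0.61 for the difference of steps. In the last batch alone, hoxb1b was -0.13 for high DMSO minus control, 0.14 for high DMF minus high DMSO and 0.01 for low DMF minus high DMSO. There hoxb5a was -0.03, 0.24 and 0.02 for high DMSO, low DMF and high DMF minus control, -0.22 for the DMF step, 0.04 for high DMF minus high DMSO and 0.27 for low DMF minus high DMSO. For hoxa13b low DMF minus control was -0.33.

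The replicate numbers were not taken to pair the pools in the fit reported. Of 29 same-numbered pairs of pools without a shared array, 8 correlated over 0.1. Within a scan batch 7 of 13 did (median 0.17), against 16 of 45 with different numbers (median -0.03), and across batches 1 of 16 did (median -0.22). Pools across batches also differ by batch, so these counts do not settle whether the numbers pair the pools. With the replicate number as a block, 0 hox genes and 0 probes were called in the DMSO step, where hoxa13b was -0.73 (adjusted p = 0.4 by limma). Under that block hoxb1b was 0.31 for high DMF minus high DMSO, and hoxb5a was 0.53 for high DMF minus control and 0.12 for high DMF minus high DMSO. For hoxa13b the block gave 0.26 for low DMF minus low DMSO, -0.01 for high DMF minus high DMSO and -0.27 for the difference of steps. Comparisons of hoxb1b and hoxb5a with low DMF could not be fitted with it.

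With 1 pair left out, these ranges crossed 0. For hoxb1b they were -0.33 to 0.20 for low DMSO minus control, -0.73 to 0.21 for low DMF minus control, 0 to 0.34 for high DMF minus control, -0.86 to 0.07 for low DMF minus low DMSO, -0.23 to 0.04 for high DMF minus high DMSO, -0.17 to 0.33 for high DMF minus low DMSO and -0.03 to 0.90 for the difference of steps. For hoxb5a they were -0.06 to 0.24, -0.72 to 0.39 and -0.21 to 0.17 for high DMSO, low DMF and high DMF minus control. They were -0.22 to 0.89 for the DMF step, -0.35 to 0.77 for low DMF minus low DMSO, -0.96 to 0.16 for low DMF minus high DMSO and -0.83 to 0.28 for the difference of steps. For hoxa13b they were -0.07 to 0.48 for low DMF minus control, -0.33 to 0.02 for high DMF minus control, -0.27 to 0.13 for low DMF minus low DMSO, -0.12 to 0.48 for high DMF minus high DMSO and -0.02 to 0.66 for the difference of steps. Of 99 other values of the levels, 94 lay within 1 SD. The level in low DMSO moved for hoxb1b to 9.26 with median scaling and 9.62 with every grade kept, and for hoxb5a to 9.18 with every grade kept. In high DMSO hoxa13b moved to 10.92 and 11.31 under these settings.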
